A study of Mus musculus with 6 samples.

Results

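Lysosomes are acidic vesicles in which proteins, glycans, lipids and nucleic acids are broken down by soluble hydrolases. Their membrane proteins line the vesicle, carry out the breakdown products and, through a proton pump, keep the inside acidic. Transcription factors of the MiT family, TFEB, TFE3 and MITF, bind short DNA motifs near the start sites of many lysosomal genes, and in well-fed cells the kinase complex mTORC1 at the lysosomal surface holds TFEB in the cytoplasm. The 47 genes described here comprise 8 cathepsins, 13 hydrolases of glycans and 7 genes grouped under lipid breakdown (hydrolases, carriers and activators, with Grn). The others are the hydrolases Tpp1 and Ppt1, 8 membrane proteins, 4 genes of the proton pump, 2 mannose 6-phosphate receptors and the 3 MiT factors. All 47 were listed by name, with earlier results of these data known. For each, the probe set with exactly 1 gene symbol and the highest mean of the 6 arrays was used. M6pr shares its probe set with a pseudogene and was not analysed here, so 46 of the 47 genes were measured, among 19938 genes with such a probe set.

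The genes were measured in C1498, a mouse leukemia cell line of C57BL/6J background that the labels call acute myeloid leukemia. Both groups grew in the same medium with serum. The 3 PJ34 samples received PJ34, an inhibitor of PARP-1, at 20 μM for 48 h, and the 3 control samples received PBS for 48 h. PARP-1 is a nuclear enzyme that adds ADP-ribose chains to proteins and takes part in DNA repair. All results are thus for 1 cell line, 1 dose and 1 time, and RNA was hybridised to 1 Affymetrix Mouse Gene ST array per sample. The deposited values are log2 expression values, so that a difference of 1 is a 2-fold change. Array medians lay between 4.41 and 4.46, and correlations between arrays were 0.992 to 0.995 within groups and 0.992 to 0.994 between them. The study calls its experiments independent and describes them no further, so p-values here measure only the spread between these arrays, which may be technical.

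The label of the line was set against markers. Of 19 measured myeloid and macrophage markers, 6 had a mean at or above 4.72, the median level of the probe sets tested, namely Ptprc, Cebpa, Cebpe, Fcgr1, Fcgr3 and Cd68. The other 13 lay below it, among them the granule protease gene Elane, the peroxidase gene Mpo, the receptor gene Csf1r and the factor gene Spi1. Of 18 T and NK cell markers, 8 lay at or above it, namely Cd3d, Cd3e, Cd3g, Cd7, Cd28, Zap70, Lat and Gata3. The other 10 lay below it, among them Cd247, Cd2, Cd5 and Cd8a. Ptprc is shared by white blood cells of both lineages, so it does not tell them apart. Other markers of both lineages lay on both sides of the median. Of further lists, 0 of 9 B cell markers lay at or above it, and 1 of 7 erythroid and megakaryocyte markers (Itga2b). So did 3 of 10 fibroblast and stromal markers (Col1a1, Col1a2 and Col3a1). Probe sets also differ in brightness, so these levels do not settle the label and the cells are called C1498 throughout. By limma, 2 of the myeloid and macrophage markers rose (10.5%) and 4 of the T and NK cell markers (22.2%), against 1.76% of all genes, and none fell. The median log2 fold change was 0.01 over the myeloid and macrophage markers and 0.04 over the T and NK cell markers. The lower and upper quartiles were -0.07 and 0.15 for the former and -0.07 and 0.25 for the latter. For all genes they were -0.08 and 0.09. The markers that rose were Fcgr1 (0.63) and Cd68 (0.51), and Cd7 (1.66), Cd28 (1.44), Cd4 (0.62) and Gata3 (0.34). Of these, Cd4 lay below the median level. Cd7 and Cd28 are also among the genes that the study lists as raised on these arrays. The lists were chosen with earlier results of these data known, so their shares are not independent of them. Averaged over each list, log2 values were 4.29 to 4.36 on the PBS arrays and 4.38 to 4.43 on the PJ34 arrays for myeloid and macrophage markers, and 5.64 to 5.65 and 5.83 to 5.90 for T and NK cell markers. The part of these markers in the lysosomal values below was not tested. In RNA from a whole culture, fewer cells of a kind and less RNA per cell cannot be told apart.

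Promoter sequence of 41 of the 46 genes was given, as 1 or more windows of the 250 bases before a RefSeq start site. The 6 letters CACGTG, which read the same on both strands, are the core of the motif that MiT factors bind. They stood in a window of 14 of the 41 genes, or 34.1%, against 6.86% of all 27025 genes with a window. The longer form TCACGTGA, also the same on both strands and containing CACGTG, was found in 7 genes (17.1% against 0.907% of all genes). The windows of 4 genes are shown here, with each CACGTG in capitals. Lamp1 and Psap are the genes whose change passed the test, and Ctsd and Cln3 both hold the longer form and did not pass. All 4 are from GRCm38.p6 and are written 5′ to 3′ along the gene.
Lamp1, chr8:13158911-13159160, plus strand: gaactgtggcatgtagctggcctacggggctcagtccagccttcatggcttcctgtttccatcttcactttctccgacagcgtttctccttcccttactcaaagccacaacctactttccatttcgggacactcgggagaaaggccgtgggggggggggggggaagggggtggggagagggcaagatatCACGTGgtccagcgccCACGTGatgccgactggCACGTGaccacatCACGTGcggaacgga
Psap, chr10:60277378-60277627, plus strand: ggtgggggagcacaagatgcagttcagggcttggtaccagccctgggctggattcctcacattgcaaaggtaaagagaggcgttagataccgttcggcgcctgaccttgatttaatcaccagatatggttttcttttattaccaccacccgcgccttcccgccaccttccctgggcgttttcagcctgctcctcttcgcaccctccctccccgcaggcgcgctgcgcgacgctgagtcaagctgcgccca
Ctsd, chr7:142387828-142388077, minus strand: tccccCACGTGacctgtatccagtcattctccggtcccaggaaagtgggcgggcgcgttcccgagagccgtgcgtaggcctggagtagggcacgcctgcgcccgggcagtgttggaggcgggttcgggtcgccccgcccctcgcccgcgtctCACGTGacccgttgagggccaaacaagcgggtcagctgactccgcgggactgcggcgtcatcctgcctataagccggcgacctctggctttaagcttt
Cln3, chr7:126583237-126583486, minus strand: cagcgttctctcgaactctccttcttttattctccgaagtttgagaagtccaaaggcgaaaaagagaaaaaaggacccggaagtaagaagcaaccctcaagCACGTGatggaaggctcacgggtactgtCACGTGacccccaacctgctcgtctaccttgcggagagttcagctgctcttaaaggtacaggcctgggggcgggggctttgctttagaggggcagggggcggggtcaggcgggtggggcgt

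Lamp1 holds 4 copies of CACGTG, whose leading bases lie 61, 45, 28 and 15 bases before the start site, more than any other of these genes. Ctsd and the window of Cln3 shown hold 2 copies each, and the other window of Cln3 holds none. The Psap window shown and its other window hold none. These matches describe the letters only.

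After PJ34, the genes Psap and Lamp1 rose in C1498 cells and no gene of the 46 fell at an adjusted p under 0.05 from limma. The other 44 did not pass, which does not show that they were unchanged. Of all genes, each by 1 probe set, 1.76% rose and 1.38% fell by the same rule, against 4.35% and 0 of the 46. Of all probe sets tested, these shares were 1.72% and 1.35%. All changes were small: the 95% confidence intervals of the log2 fold change lay between -0.50 for Ctsl and 0.59 for Psap, so that no gene's interval reached 2-fold. The median log2 fold change of the 46 genes was 0.04, beside 0.004 for all genes. Of the 46, 27 lay above 0 (58.7%, against 51.4% of all genes) and 19 below.

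Before adjustment, limma's p was under 0.05 for 11 genes that were higher (23.9% of the 46, against 9.18% of all genes) and for 3 that were lower (6.52% against 7.52%). For 13 genes all PJ34 values lay above all PBS values (28.3%, against 12.9% of all genes), and for 6 all lay below (13.0% against 10.1%). These shares depend on signal level. Genes with a mean at or above the median of the probe sets tested changed more often (3.09% rose and 2.64% fell), and 38 of the 46 are such genes. Among these 38, 26.3% were higher and 7.89% lower at an unadjusted p under 0.05, against 13.7% and 11.8% of all genes of that level. All PJ34 values lay above all PBS values for 34.2% of the 38 and below them for 15.8%, against 20.3% and 16.0%. No p was computed for the list as a whole. With 3 arrays on each side, an exact permutation test (two-sided) of any 1 gene has 0.1 as its smallest p.

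**Figure D1:**
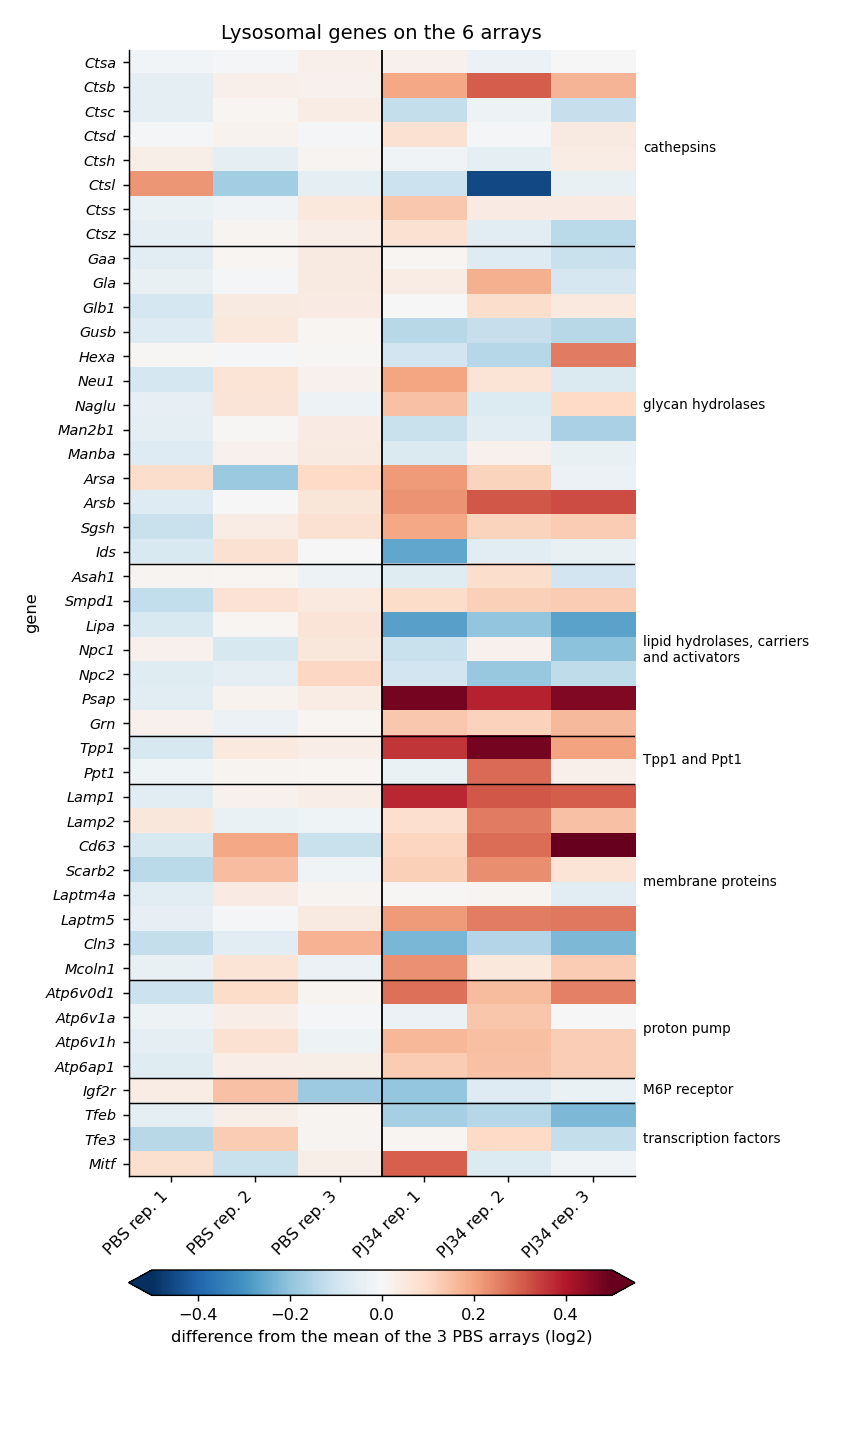
Difference of each log2 expression value from the mean of the 3 PBS arrays (colour, log2 scale) for the 46 genes (rows, grouped by role) on the 6 arrays (columns). Psap, Lamp1, Laptm5 and Arsb are red on all 3 PJ34 arrays, Lipa, Cln3 and Tfeb are blue on all 3, and values beyond 0.5 take the end colours.

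Psap encodes prosaposin, the precursor of the saposins, which present sphingolipids to lysosomal hydrolases. Its log2 expression values were 7.61, 7.68 and 7.70 on the PBS arrays and 8.14, 8.05 and 8.13 on the PJ34 arrays. Every PJ34 value lay well above the highest PBS value. The ratio was 1.36, a log2 fold change of 0.44 with a 95% confidence interval of 0.30 to 0.59 (SE 0.063, limma adjusted p = 0.0101). Psap passed whichever of the 6 arrays was left out, with a log2 fold change of 0.41 to 0.47 and an adjusted p of 0.0209 to 0.0499.

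None of the other 6 genes grouped under lipid breakdown passed. Lipa, the lysosomal acid lipase that frees cholesterol from its esters, had log2 values of 7.24, 7.33 and 7.38 with PBS and 7.05, 7.12 and 7.05 with PJ34. The groups did not overlap, and the log2 fold change of -0.24 (SE 0.066, limma adjusted p = 0.0937) did not pass. Grn encodes progranulin, which is cut into granulins in the lysosome. Its log2 values were 8.09, 8.04 and 8.08 with PBS and 8.21, 8.19 and 8.24 with PJ34. The PJ34 values were the higher ones, with a log2 fold change of 0.14 (SE 0.059, limma adjusted p = 0.291). Of the cholesterol carriers, Npc2 stood at a log2 fold change of -0.14 (ratio 0.909, 95% confidence interval 0.814 to 1.02), with no overlap between groups, and Npc1 at -0.10 (ratio 0.934, 95% confidence interval 0.825 to 1.06), with overlap. Smpd1, acid sphingomyelinase, stood at 0.11 (ratio 1.08, 95% confidence interval 0.965 to 1.21), with no overlap. Asah1, acid ceramidase, stood at -0.02 (ratio 0.984, 95% confidence interval 0.882 to 1.10).

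Among membrane proteins, Lamp1 rose. LAMP1 is a heavily glycosylated protein that, with LAMP2, makes up much of the protein of the lysosomal membrane. Its log2 values were 8.68, 8.75 and 8.76 on the PBS arrays and 9.11, 9.04 and 9.03 on the PJ34 arrays, with a clear gap between the groups. The ratio was 1.26 (95% confidence interval 1.14 to 1.39), a log2 fold change of 0.33 (SE 0.062, limma adjusted p = 0.0289). Lamp1 passed in only 1 of the 6 fits with an array left out, that without PJ34 replicate 2 (adjusted p = 0.0487), and in the others its adjusted p reached 0.110 while the log2 fold change stayed between 0.30 and 0.35.

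Lamp2, the partner of Lamp1, had log2 values of 8.49, 8.40 and 8.41 with PBS and 8.51, 8.69 and 8.58 with PJ34. The lowest PJ34 value lay just above the highest PBS value, and the log2 fold change of 0.16 (SE 0.070, limma adjusted p = 0.285) did not pass. Laptm5, a membrane protein of blood cells that takes part in turnover of antigen receptors, had log2 values of 10.13, 10.17 and 10.22 with PBS and 10.39, 10.43 and 10.44 with PJ34. The groups lay apart, at a log2 fold change of 0.24 (SE 0.061, limma adjusted p = 0.0753). Cln3, whose loss causes juvenile neuronal ceroid lipofuscinosis, lay the other way, with log2 values of 5.80, 5.86 and 6.09 with PBS and 5.68, 5.77 and 5.69 with PJ34. Its PBS replicate 3 stood well above the other values, and the log2 fold change was -0.20 (SE 0.085, limma adjusted p = 0.284). Scarb2, the carrier of glucocerebrosidase to the lysosome, stood at 0.14 (ratio 1.10, 95% confidence interval 0.960 to 1.27) and the calcium channel Mcoln1 at 0.14 (ratio 1.10, 95% confidence interval 0.983 to 1.23). Laptm4a, a relative of Laptm5, stood at -0.01 (ratio 0.992, 95% confidence interval 0.899 to 1.09). The tetraspanin Cd63 had a log2 fold change of 0.30 (limma adjusted p = 0.245) with overlapping groups, at a mean level of 1.93, far below the median of the probe sets, where how much of the signal is background was not measured.

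**Figure D2:**
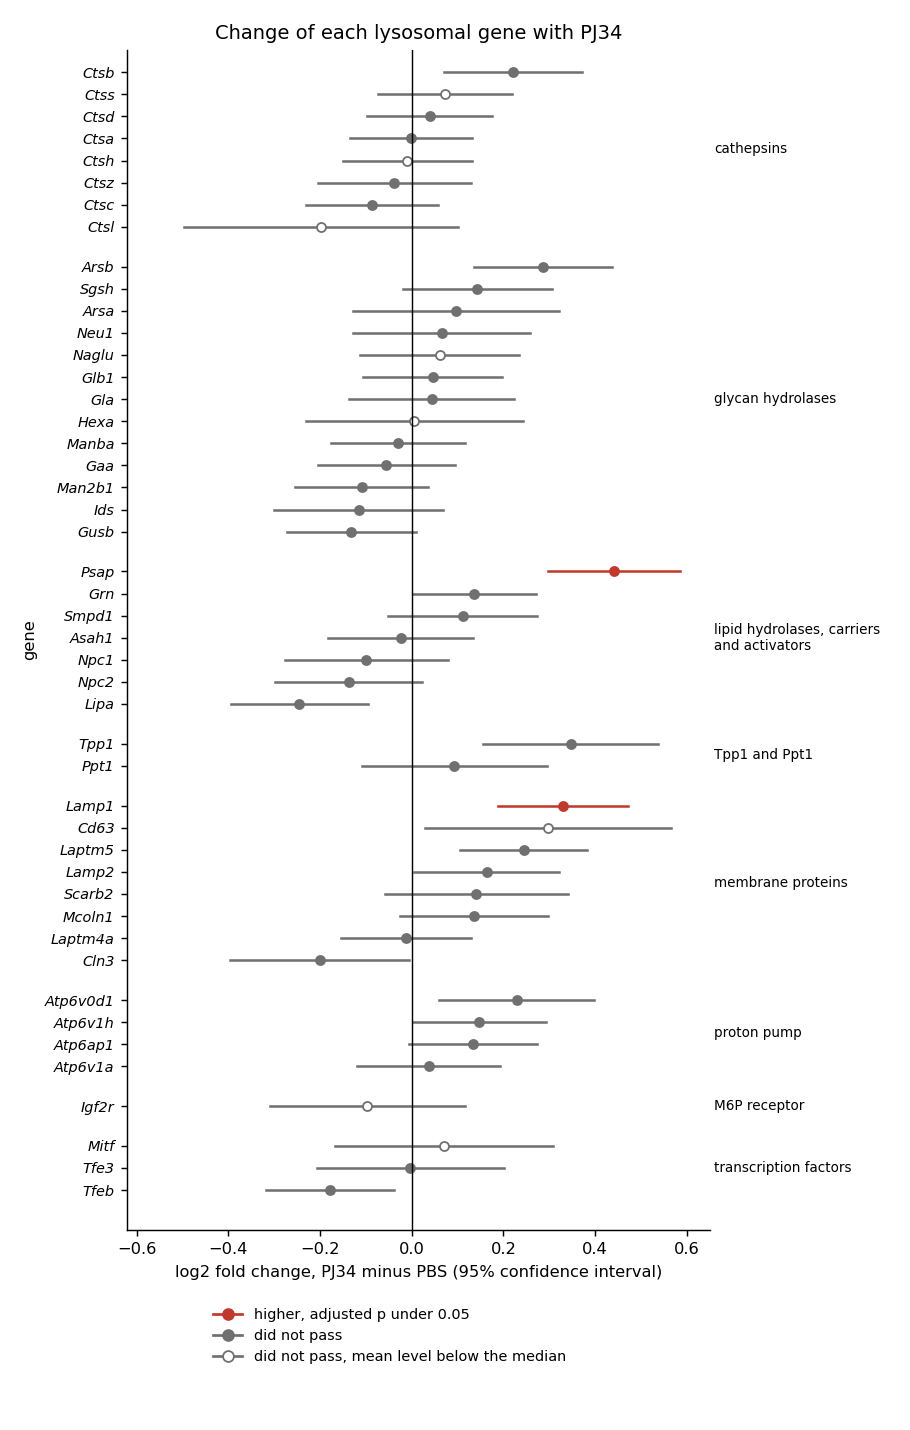
Log2 fold change, PJ34 minus PBS, with its 95% confidence interval from limma (horizontal axis) for the 46 genes (vertical axis, grouped by role and sorted within each role). Psap and Lamp1 (red) passed the test, grey genes did not, and open points are the 8 genes whose mean level lay below the median of the probe sets tested.

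Cathepsins are the proteases of the lysosome, most of them cysteine proteases, with Ctsd an aspartic and Ctsa a serine protease. None of the 8 passed. Their median log2 fold change was -0.006, the range was -0.20 to 0.22, and limma's unadjusted p was under 0.05 for Ctsb alone. Ctsb, cathepsin B, had log2 values of 8.28, 8.36 and 8.36 with PBS and 8.53, 8.64 and 8.50 with PJ34. Every PJ34 value was the higher, and the log2 fold change of 0.22 (SE 0.066, limma adjusted p = 0.124) did not pass. Ctsd, with 2 copies of CACGTG in its promoter window, had log2 values within 8.58 to 8.66 on all 6 arrays, and stood at a log2 fold change of 0.04 (ratio 1.03, 95% confidence interval 0.935 to 1.13). The upper bounds for Ctsa, Ctsc and Ctsz also lay below the ratio of Psap, with log2 fold changes and intervals of the ratio of Ctsa (-0.002, 0.910 to 1.10), Ctsc (-0.09, 0.852 to 1.04) and Ctsz (-0.04, 0.868 to 1.09). The probe sets of Ctsl (-0.20, 0.708 to 1.07), Ctss (0.07, 0.951 to 1.16) and Ctsh (-0.01, 0.901 to 1.09) lay below the median level. Of the 46 genes, Ctsl varied most between arrays of a group (SD 0.201 with PBS and 0.221 with PJ34).

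The 13 hydrolases of glycans, which remove sugars and sulfate groups step by step, did not pass either, with a median of 0.04. Arsb, which removes sulfate from dermatan sulfate, had log2 values of 7.46, 7.52 and 7.58 with PBS and 7.74, 7.83 and 7.84 with PJ34. The groups lay apart at a log2 fold change of 0.29 (SE 0.066, limma adjusted p = 0.0583), the value nearest the threshold among genes that did not pass. A different probe set of Arsb gave 0.20 (SE 0.072, limma adjusted p = 0.207), again with no overlap. Groups also did not overlap for the heparan sulfatase Sgsh, at 0.14 (ratio 1.10, 95% confidence interval 0.987 to 1.24), with PJ34 the higher. PJ34 was the lower for the glucuronidase Gusb, at -0.13 (ratio 0.913, 95% confidence interval 0.828 to 1.01), and for the mannosidase Man2b1, at -0.11 (ratio 0.927, 95% confidence interval 0.839 to 1.03). The remaining 9 had overlapping groups. With the log2 fold change and the interval of the ratio, the sulfatases were Arsa (0.10, 0.916 to 1.25) and Ids (-0.12, 0.812 to 1.05), and the sialidase was Neu1 (0.07, 0.915 to 1.20). The galactosidases were Glb1 (0.05, 0.929 to 1.15) and Gla (0.04, 0.910 to 1.17), the mannosidase of the beta linkage Manba (-0.03, 0.885 to 1.08) and the glycogen-splitting glucosidase Gaa (-0.06, 0.868 to 1.07). Naglu (0.06, 0.925 to 1.18) and Hexa (0.006, 0.852 to 1.18), which remove amino sugars, lay below the median level.

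Tpp1 and Ppt1, a peptidase and a thioesterase whose loss causes ceroid lipofuscinoses of childhood, did not pass. Log2 values of Tpp1 were 7.45, 7.58 and 7.57 with PBS and 7.89, 8.01 and 7.74 with PJ34. The difference was of the size of that of Lamp1, but the PJ34 values were spread more widely (SD 0.139 against 0.040 for Lamp1), and the log2 fold change was 0.35 (SE 0.084, limma adjusted p = 0.0702). Ppt1 stood at 0.09 (ratio 1.07, 95% confidence interval 0.928 to 1.23). Its value on PJ34 replicate 2 (8.50) stood above the other 5, which lay between 8.19 and 8.25.

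All 4 proton pump genes had a log2 fold change above 0, as 51.4% of all genes did, and none passed. Their median was 0.14. Atp6v0d1, of the part in the membrane, had log2 values of 7.79, 7.99 and 7.92 with PBS and 8.18, 8.06 and 8.15 with PJ34. The groups did not overlap, at 0.23 (SE 0.074, limma adjusted p = 0.154). Atp6v1h, a regulatory subunit of the part that splits ATP, had log2 values of 7.27, 7.40 and 7.29 with PBS and 7.49, 7.47 and 7.44 with PJ34. Here too every PJ34 value was higher (0.15, SE 0.064, limma adjusted p = 0.292). The accessory subunit Atp6ap1 stood at 0.13 (ratio 1.10, 95% confidence interval 0.995 to 1.21), with no overlap, and the catalytic subunit Atp6v1a at 0.04 (ratio 1.03, 95% confidence interval 0.921 to 1.14), with overlap.

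Of the 3 MiT factors none passed. Tfeb is the one best known for control of lysosomal genes. Its log2 values were 6.20, 6.28 and 6.26 with PBS and 6.08, 6.10 and 6.02 with PJ34, so that every PJ34 value was the lower. The log2 fold change of -0.18 (SE 0.062, limma adjusted p = 0.184) did not pass, and the adjusted p ran from 0.0515 to 0.414 over the alternatives. Tfe3 had log2 values of 6.37, 6.64 and 6.53 with PBS and 6.52, 6.61 and 6.39 with PJ34. These overlapped throughout, with a log2 fold change of -0.003 and a 95% confidence interval of the ratio from 0.866 to 1.15. Mitf, whose probe set is dim, had log2 values of 2.67, 2.48 and 2.62 with PBS and 2.88, 2.52 and 2.57 with PJ34. Only PJ34 replicate 1 stood apart, and the log2 fold change was 0.07 (SE 0.10). A further probe set of Mitf gave 0.006. Arrays measure mRNA, and nothing here bears on where the factor proteins were in the cell. Igf2r, the larger receptor that carries hydrolases marked with mannose 6-phosphate to the lysosome, stood at -0.10 (ratio 0.935, 95% confidence interval 0.807 to 1.08), below the median level.

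The 14 genes with CACGTG in a promoter window and the 27 without were set side by side. Limma's unadjusted p was under 0.05 with a higher value for 1 of the 14, Lamp1, and for 8 of the 27, beside 9.18% of all genes and 13.7% of those at or above the median level. Median log2 fold changes were 0.04 and 0.07. The difference between the gene sets was not tested.

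**Figure D3:**
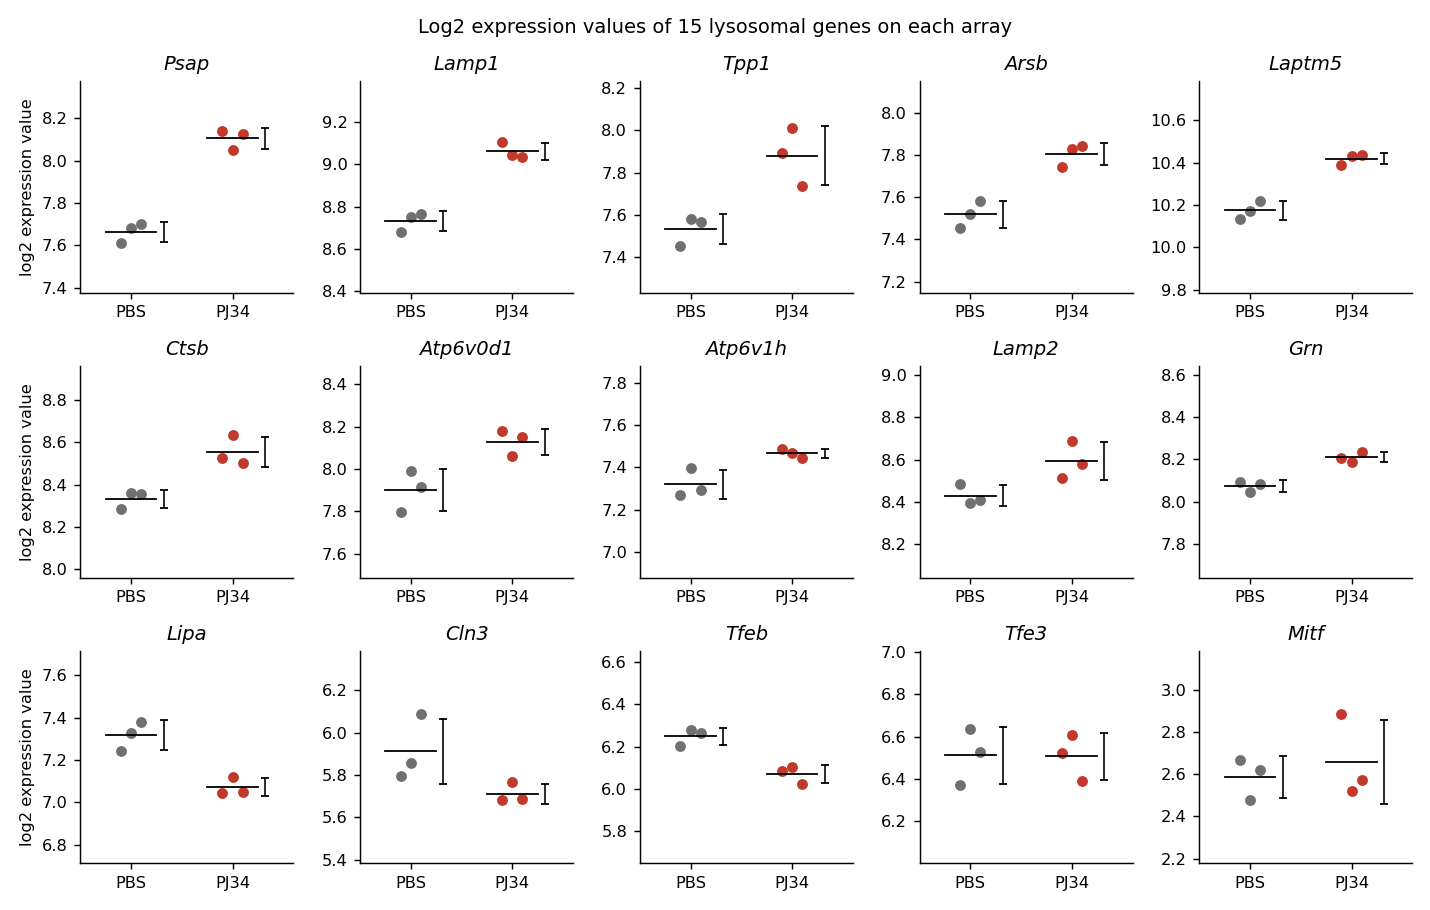
Log2 expression value (vertical axis) of 15 genes, array by array. PBS points are grey and PJ34 points red, a line marks each mean and a bar 1 SD to either side. The gap between groups is widest for Psap, and the groups overlap for Tfe3 and Mitf.

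Array by array, the medians over the 46 genes were small. Their median difference from the PBS mean was 0.06 on PJ34 replicate 1, 0.06 on PJ34 replicate 2 and 0.015 on PJ34 replicate 3, where the medians of all genes were 0.014, -0.017 and 0.019. On PJ34 replicate 3 the lysosomal median was thus not above that of all genes. The 3 arrays had 29, 28 and 25 of the 46 above the PBS mean. On PBS replicate 1 the median was -0.05 (-0.0096 for all genes) and 10 of the 46 were above, so that this control array held lower lysosomal values than the other 2, where 32 and 35 were above. Without PBS replicate 1, the median log2 fold change of the 46 genes was 0.02 in place of 0.04, beside 0.007 for all genes. In that fit 7 of the 46 were higher and 4 lower at an unadjusted p under 0.05 from limma. Psap alone was then called, as with any other array left out except PJ34 replicate 2. Without PBS replicate 3, and without PJ34 replicate 3, 7 genes were likewise higher and 1 was lower. In the fits with an array left out, the share of all genes at that p was not counted. These counts thus cannot be set against a background. The median without PJ34 replicate 1 was 0.03 for the 46 genes and -0.0015 for all genes. The calls also depend on which probe sets enter the fit, which sets both the number adjusted over and the moderated SE. With all 35556 probe sets of the array in the adjustment, neither passed (limma adjusted p = 0.0504 and 0.0880). Without dim probe sets, and likewise with an intensity trend and robust moderation, 7 genes were higher and Lipa was lower. The 7 were Ctsb, Arsb, Psap, Tpp1, Lamp1, Laptm5 and Atp6v0d1. Calls over all probe sets also became more frequent, from 403 higher and 315 lower of 23412. They were 929 and 840 of 11706 without dim probe sets, where 38 of the 46 genes were tested. With the trend and robust moderation they were 1009 and 921 of 23412.

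**Figure D4:**
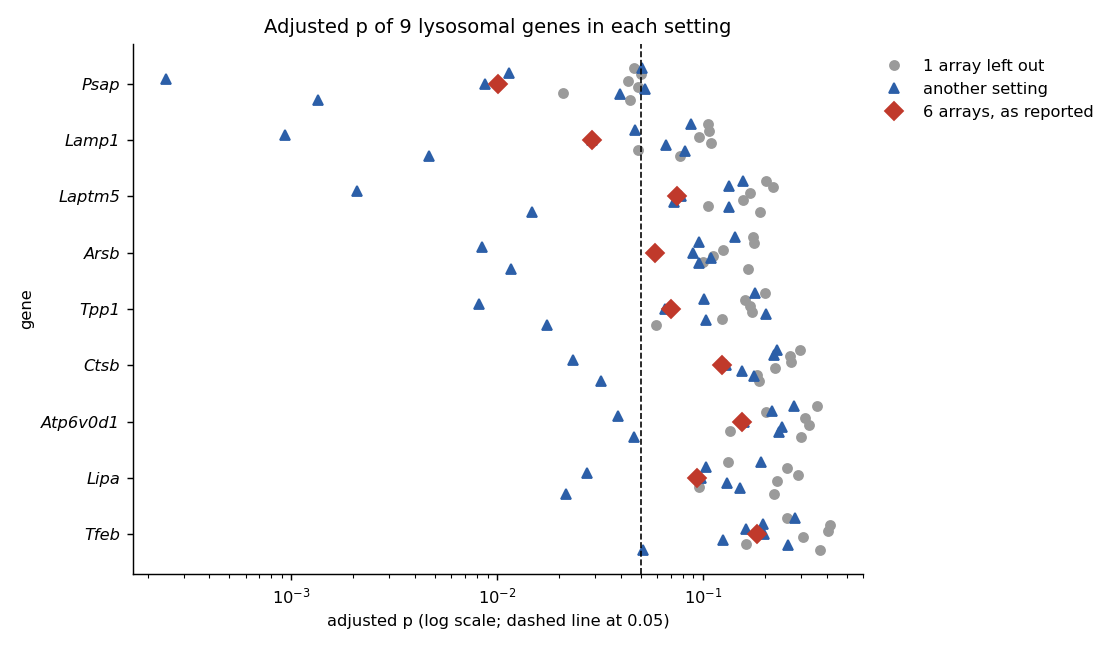
Adjusted p (horizontal axis, log scale) of 9 genes (vertical axis) from limma with all 6 arrays (red diamonds), with 1 array left out (grey circles) and in the other settings, which include the methods' t-test (blue triangles). The dashed line marks 0.05. Psap lies left of the line except with all probe sets (0.0504) and the methods' t-test (0.0522), and Tfeb lies right of it in all of them.

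Lists of other genes of the lysosome and of its control, without the 46, were read from the same fit. In each list most genes lay at or above the median level, where 3.09% of all genes rose and 2.64% fell. Of 38 other lysosomal hydrolases and activators, 6 rose (15.8%) and 2 fell (5.26%), beside 1.76% and 1.38% of all genes, with a median log2 fold change of 0.01. Among the genes that rose were the macrophage sialomucin Cd68 (log2 fold change 0.51, SE 0.097), the exonuclease Pld3 (0.42), the glycoprotein Creg1 (0.34) and Gm2a, which presents gangliosides to hexosaminidase (0.33). The thioesterase Ppt2 (-0.50, SE 0.077) and the phosphodiesterase Smpdl3a (-0.43, SE 0.085) fell. Cd68 is also one of the macrophage markers described above. Of these 8 calls none held in all 6 fits with an array left out. Ppt2 held in 3, those without a PJ34 array, and Pld3 and Smpdl3a held in the fit without PJ34 replicate 2. Of 20 further proton pump genes, Atp6v1d rose (0.38, SE 0.078), or 5.00%, and none fell. Their median of 0.10 lay on the same side as that of the 4 above, with 15 genes above 0 and 5 below. At limma's unadjusted p under 0.05, 6 were higher (30%, against 9.18% of all genes) and 2 lower (10% against 7.52%). Atp6v0d2, a subunit known from osteoclasts, had 0.53 (SE 0.12, limma adjusted p = 0.0501) at a dim level. Atp6v1d held in none of those 6 fits. Of 38 other membrane proteins and transporters, Slc38a9 fell (2.63%) and none rose. It is the arginine sensor of mTORC1 and had -0.37 (SE 0.064, limma adjusted p = 0.0222), and it held in the fit without PJ34 replicate 2. Slc38a7, a transporter of glutamine and asparagine, had -0.29 (adjusted p = 0.0569).

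Of 46 genes of sorting and fusion, Vps11 rose (0.42, SE 0.065, limma adjusted p = 0.0140), or 2.17%, and none fell, with a median of 0.08. Vps11 is a subunit of the tethering complexes of late endosomes. Of all genes 1.76% rose, and 3.09% of those at or above the median level, where 43 of the sorting genes lay. The clathrin heavy chain Cltc had 0.25 (adjusted p = 0.0924). Of 36 genes of mTORC1 and folliculin, 2 rose (5.56%) and 1 fell (2.78%), again beside 1.76% and 1.38% of all genes. At or above the median level, where 33 of the 36 lay, these shares of all genes were 3.09% and 2.64%. The GTPase Rraga (0.35, SE 0.074) and Tsc2, an inhibitor of mTORC1 (0.32, SE 0.063), rose and the leucine sensor Sesn2 (-0.40, SE 0.068) fell, with a median of 0.03. Neither rise held in any fit with an array left out, and the fall of Sesn2 held in 2 of 6, those without PJ34 replicate 1 or 2. Of 44 autophagy genes none fell, and the median was 0.10. Of all genes 1.76% rose, and 3.09% of those at or above the median level, where 41 of the 44 lay. Of the autophagy genes 4 rose (9.09%). They were the mitophagy receptor Bnip3 (0.83, SE 0.071), Vps11, the cargo receptor Sqstm1 (0.35, SE 0.067) and Calcoco1, a receptor for the endoplasmic reticulum (0.28, SE 0.062). Bnip3 held in all 6 fits with an array left out, Vps11 in 3 (without PBS replicate 2, PJ34 replicate 2 or PJ34 replicate 3), Sqstm1 in that without PJ34 replicate 2 and Calcoco1 in none.

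**Figure D5:**
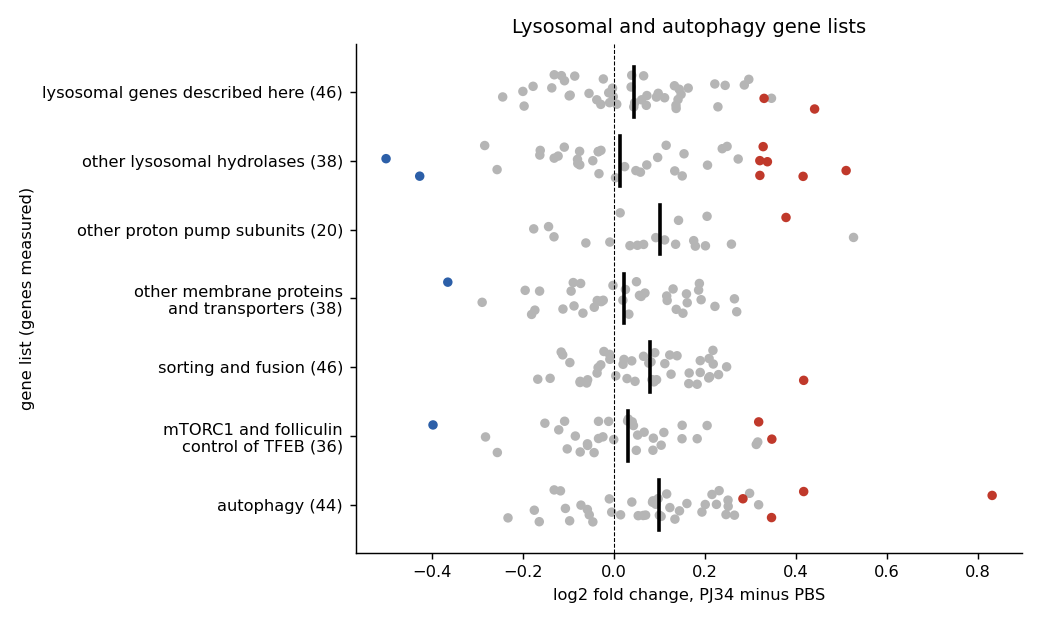
Each point is 1 measured gene, placed by its log2 fold change (horizontal axis, PJ34 minus PBS) in 1 of 7 lists (vertical axis). Colour marks a limma adjusted p under 0.05, red for genes that rose and blue for genes that fell. Each list's median is a black bar, 0.04 for the 46 genes described here and 0.10 for autophagy.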

How the data were processed

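RNA of C1498 cells, 3 samples with PBS and 3 with PJ34, was hybridised to Affymetrix Mouse Gene ST arrays. The deposited values are log2 expression values per probe set, which the authors made by RMA (background correction, quantile normalization and summary). Affymetrix Expression Console 1.3.1 is the program given by the submitters' processing notes. No scanner files, detection calls or scan dates were used here, and the genome build of the probe annotation is not given in the sources used here.

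Groups and replicate numbers were taken from the sample labels. The values were compared as deposited with limma 3.58.1 in R 4.3.3 over 23412 probe sets, those with a gene in the platform annotation and 2 more that the study lists. Benjamini-Hochberg adjustment ran over all of them, with a threshold of 0.05. The fit was tested on simulated data. A gene is represented by its probe set of 1 symbol with the highest mean, and all 46 symbols matched the RefSeq genes by gene number. Genes named with the value of every array are those with an adjusted p under 0.05, those with groups that do not overlap and an unadjusted p under 0.05, and the 3 MiT factors. From each further list the genes that passed are named, at most 6 by lowest p, or the 2 lowest p where fewer than 2 passed. The genes and lists were chosen with earlier results of these data known. Promoter windows are from RefSeq. Precision is limited by the number of arrays, 3 in each group. Alternatives were array centring, an intensity trend with robust moderation, no dim probe sets, all probe sets, the mean of the probe sets of a gene, the methods' t-test, the replicate number as a block, and leaving out each array.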

Additional observations from a re-analysis of the deposited data

How the results depend on the processing

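Counts are given as higher and lower at an adjusted p under 0.05. With the 6 arrays they were 403 and 315 for all probe sets, and 2 and 0 for the 46 lysosomal genes. With all probe sets of the array in the adjustment they were 112 and 76 for all, and 0 for the lysosomal genes and for each further list except autophagy, at 1 higher. With the methods' t-test they were 78 and 65 for all, again 0 for the lysosomal genes, where 11 were higher and 3 lower at an unadjusted p under 0.05, and 0 for the further lists except 1 higher in autophagy. With an intensity trend and robust moderation they were 1009 and 921 for all, 7 and 1 for the lysosomal genes, 7 higher in autophagy, 4 higher in the proton pump and in sorting, 3 and 2 in membrane proteins and 3 and 3 in mTORC1 control. Without dim probe sets they were 929 and 840 for all, 7 and 1 for the lysosomal genes, 10 and 1 in autophagy, 5 and 3 in mTORC1 control, 4 and 3 in membrane proteins, and 3 higher in the proton pump and in sorting. Centring arrays gave 2 higher hydrolases, 2 lower membrane proteins and 0 higher in mTORC1 control. The mean of the probe sets of a gene gave 2 higher pump genes and 0 lower membrane proteins.

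The labels do not say whether the replicate numbers pair the samples. Deviations of same-numbered arrays from their group means correlated at -0.013, 0.130 and -0.0092, and those of different-numbered arrays at -0.147 to 0.145. Not every array correlated best with its own number, but with 3 arrays in each group these values cannot settle the pairing. With the replicate number as a block the counts were 222 and 143 for all probe sets and 1 and 0 for the lysosomal genes (Psap, with Lamp1 at an adjusted p of 0.0817). In that block fit, the hydrolases had 0 higher and 1 lower, autophagy 1 higher, and mTORC1 control, membrane proteins and sorting 0.

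In the 6 fits that each lacked 1 array, 148 to 282 probe sets were higher and 83 to 321 lower, with 1 to 2 higher and 0 lower lysosomal genes, 0 to 1 higher and 0 to 3 lower hydrolases, 0 to 1 higher pump genes, 0 to 1 lower membrane proteins, 0 to 1 higher sorting genes, 0 higher and 0 to 1 lower genes of mTORC1 control and 1 to 4 higher autophagy genes. The sign of the log2 fold change turned in some of these fits for 12 lysosomal genes whose value was near 0, over the ranges -0.078 to 0.012 for Asah1, -0.014 to 0.072 for Atp6v1a, -0.013 to 0.011 for Ctsa, -0.033 to 0.010 for Ctsh, -0.095 to 0.010 for Ctsz, -0.023 to 0.107 for Gla, -0.120 to 0.081 for Hexa, -0.039 to 0.0098 for Laptm4a, -0.042 to 0.141 for Mitf, -0.0011 to 0.134 for Neu1, -0.0026 to 0.156 for Ppt1 and -0.074 to 0.059 for Tfe3. Hexa also turned with arrays centred (-0.015 against 0.0059). The choice of probe sets changes both the number adjusted over and the moderated SE (for Psap 0.0633 with the probe sets tested, 0.0621 with all and 0.0545 without dim ones). The cause of these differences was not tested.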
